A study of Mus musculus with 2 samples.

Results

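Transcripts of 8 genes of the neuregulin and ErbB system (Nrg1, Nrg2, Nrg4, Hbegf, Egfr, Erbb2, Erbb3 and Erbb4) were followed in nuclei from the ascending aorta and arch of mice, out of 54754 features in the count matrices. The genes were taken by symbol from the feature lists, and they were proposed with UMI values of these nuclei already known, so their levels by class of nucleus are given as a description with no test. The animals were Wnt1-Cre/Rosa26-mTmG mice, in which the Wnt1-Cre driver is active in the neural crest and switches the Rosa26 reporter from tdTomato to GFP in its descendants; every sample carries both alleles, there was no treatment, and the age of the mice is not given in the sources used here. Per the labels, aortas of 6 mice were pooled by sex, and the wording leaves unsaid whether that number is for each pool. Each pool, 1 Female and 1 Male, was split into 2 technical replicates that the barcodes do not tell apart, so the study holds 1 library per sex.

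Neuregulins and heparin-binding EGF-like growth factor are made as membrane proteins that proteases release, and they bind receptors of the ErbB family on neighbouring cells. NRG1 and NRG2 bind ErbB3 and ErbB4, NRG4 binds ErbB4, and HB-EGF binds EGFR and ErbB4; ErbB2 has no known ligand and acts as the partner of the others, and ErbB3 has an impaired kinase and signals through its partners. In the cardiovascular system NRG1 is known as a factor of the endothelium that acts on muscle through ErbB4 and ErbB2, and NRG4 is known as a factor secreted by brown fat.

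Nuclei were assigned to the class whose 3 marker genes had the largest UMI sum, with at least 3 UMIs. A UMI is a molecular identifier that counts 1 captured transcript once. Muscle was defined by Myh11, Acta2 and Lmod1, endothelium by Ptprb, Flt1 and Pecam1, fibroblasts by Pdgfra, Dcn and Scara5, fat by Adipoq, Plin1 and Plin4, and macrophages by Mrc1, F13a1 and Cd163. The Female and Male libraries gave 8124 and 7656 muscle, 5166 and 6766 endothelial, 2181 and 2477 fibroblast, 1475 and 1334 fat, and 481 and 696 macrophage nuclei, while 1436 and 1724 nuclei fell in no class. Median depth ran from 2392 UMIs in Female macrophages to 6979 in Male fat nuclei. Of 6 further markers a class, each was highest in its own class in both libraries, except Kdr, the VEGF receptor gene, which was at 10.2 and 9.68 CPM (UMIs per 1000000 UMIs) in endothelium and at 13.7 and 21.0 CPM in fibroblasts. Between 16.0% and 28.3% of the nuclei of a class also held 3 or more marker UMIs of another class, 942 Female and 1504 Male nuclei were called doublets, and 4287 barcode sequences occurred in both libraries. Intervals are at 95% and cover counting error within a library only.

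The ligand gene Nrg4 had its highest level in fat nuclei, where the receptor gene Erbb4 was also measured. The bases before their start sites are shown for that reason. They come from RefSeq, build GRCm38.p6, which gave a promoter for 4 of the 8 members; capitals mark matches to the nuclear receptor half-site AGGTCA, which reads TGACCT on the strand shown. Each holds 250 bases, 5′ to 3′ on the strand of the gene, and ends just before the start site, Erbb4 at chr1:69108060-69108309 on the minus strand and Nrg4 at chr9:55283626-55283875 on the minus strand.
Erbb4: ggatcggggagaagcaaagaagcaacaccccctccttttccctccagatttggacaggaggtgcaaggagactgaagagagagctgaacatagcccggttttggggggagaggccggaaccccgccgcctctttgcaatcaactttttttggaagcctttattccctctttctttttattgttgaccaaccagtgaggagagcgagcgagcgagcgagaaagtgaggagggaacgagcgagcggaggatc
Nrg4: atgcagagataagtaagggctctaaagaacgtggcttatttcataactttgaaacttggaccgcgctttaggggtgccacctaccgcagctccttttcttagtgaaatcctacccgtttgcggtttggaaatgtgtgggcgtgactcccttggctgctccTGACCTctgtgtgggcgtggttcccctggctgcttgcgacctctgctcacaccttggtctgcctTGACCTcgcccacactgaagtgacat
The Nrg4 window held 2 half-site matches, beginning at bases 161 and 225, and had 53.2% GC with 10 CpG dinucleotides. The Erbb4 window held 0 half-site matches, 1 ETS core (CCGGAA) beginning at base 114, and 54% GC with 12 CpG dinucleotides. Over 32851 promoter windows of the same length, searched on both strands, AGGTCA occurred in 14.0% and CCGGAA in 12.0%, and the median GC content was 52.4%. Neither window held a GC box (GGGCGG, in 32.7% of windows), a TATA box (TATAAA, 12.4%), a CCAAT box (CCAAT, 33.8%), a CArG box (1.47%) or a PPAR direct repeat (0.0335%, a motif that contains the half-site). A match is a string of letters and not a measured binding site.

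The genes differ widely in length, and the counting of introns is not given in the sources used here, so levels were compared between classes for 1 gene at a time and not between genes. In the GENCODE annotation of GRCm38, Nrg1 (chr8:31814551-32884029, minus strand) and Erbb4 (chr1:68032186-69108059, minus strand) span 1069.5 and 1075.9 kb. Nrg4 (chr9:55220222-55326844, minus strand) spans 106.6 kb and overlaps the protein-coding gene Fbxo22 on the other strand; the RefSeq start site used above lies inside that span. Egfr (chr11:16752203-16918158, plus strand) spans 166 kb and overlaps the antisense gene Egfros, and Nrg2 (chr18:36017652-36197380, minus strand) spans 179.7 kb and overlaps an antisense model. Erbb2 (chr11:98412470-98437716, plus strand) spans 25.2 kb and overlaps the coding gene Mien1 on the other strand. Erbb3 (chr10:128567523-128589652, minus strand) and Hbegf (chr18:36504927-36515805, minus strand) span 22.1 and 10.9 kb. Nrg1 overlaps 2 models on the other strand. The strand setting of the counting is not given in the sources used here. Counts of Nrg1, Nrg2, Nrg4, Egfr and Erbb2 may therefore hold reads of those partners. Erbb4 overlaps 8 models on its own strand, none of them protein-coding, and Erbb3 overlaps 1 on its own strand. Such models can affect the counts at any strand setting, and this was not tested.

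Among the ligands, each had its highest level in a single class, the same in both libraries: Nrg1 in endothelium, Nrg2 in macrophages, Nrg4 in fat and Hbegf in muscle. Among the receptors, Egfr was highest in fibroblasts in both libraries, Erbb4 was higher in fat and in muscle than in the other classes, and Erbb2 and Erbb3 did not exceed 16.7 CPM in any of the 5 classes.

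**Figure D1:**
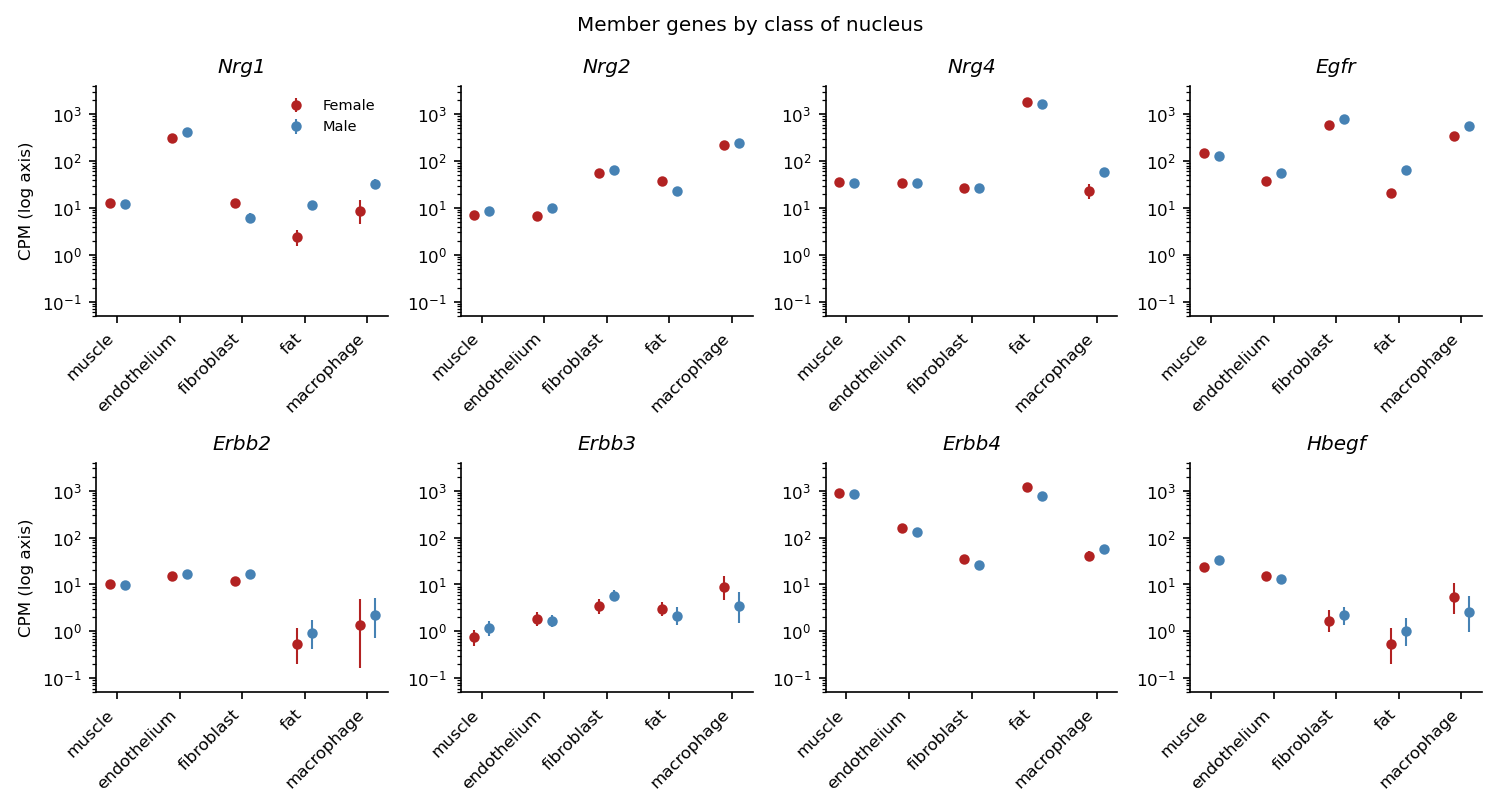
Level of each of the 8 genes in the 5 classes of nuclei, in CPM on a log axis, with 1 point per library (Female red, Male blue) and bars for the exact 95% Poisson interval. Nrg4 stands at 1786 and 1633 CPM in fat and at 57.5 CPM or less elsewhere, and Nrg1 stands at 311 and 420 CPM in endothelium and at 32.9 CPM or less elsewhere.

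Nrg1 was measured at 311 CPM (303 to 319) in Female and 420 CPM (412 to 428) in Male endothelial nuclei. In the other classes it ranged from 2.34 CPM in Female fat to 32.9 CPM in Male macrophages. The endothelial values lie above all 8 values of the other classes, and the neighbours in the order of those classes overlap. A UMI of Nrg1 was found in 15.1% and 18.0% of endothelial nuclei, against 1.24% and 1.71% of muscle nuclei of similar depth; after thinning every nucleus to 1000 UMIs, which left out 174 and 416 shallower endothelial nuclei, the endothelial shares were 10.2% and 12.3%. In muscle nuclei with 0 endothelial marker UMIs, Nrg1 was at 6.21 and 4.11 CPM, below the 16.1 and 15.7 CPM in those with at least 1.

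Within endothelium Nrg1 was concentrated in few nuclei. The 572 Female and 918 Male nuclei with 2 or more Nrg1 UMIs held 96.4% and 97.1% of the endothelial Nrg1 UMIs, with a median of 5 UMIs each and up to 166. Endothelial subgroups were set by the largest sum of their genes: Emcn and Thbs1, Chrm3 and Cyp4b1, or Ankrd33b, Chn2 and Fgfr3. Nrg1 was at 939 and 1272 CPM in the Emcn subgroup, 186 and 272 CPM in the Chrm3 subgroup and 30.5 and 69.1 CPM in the Ankrd33b subgroup. The order of the 3 subgroups was the same in both libraries, and 42.7% and 48.9% of Emcn nuclei had an Nrg1 UMI.

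Genes of these Nrg1 nuclei were named by setting endothelial nuclei with 2 or more Nrg1 UMIs beside those with 0, as a description, since the nuclei were chosen by a measured gene. Of 7019 genes, 34 were at least 2-fold higher and 33 at least 2-fold lower in both libraries (log2 of CPM + 20), 0.955% of the genes. Among the largest on the higher side were Thbs1, Gdf6, Adam33, Rps6ka2, Emcn, Lpar1 and Otogl. Gdf6, a growth factor of the BMP family, was at 107 and 130 CPM against 9.23 and 8.29 CPM, and Lpar1, a receptor for lysophosphatidic acid, at 298 and 302 CPM against 66.8 and 51.5 CPM. On the lower side were Galnt18, Cldn5, Ldb2, Ptprj, Stmn2, Ankrd33b, Tspan11 and Ifitm10. Cldn5, the tight junction protein of endothelium, was at 25.9 and 47.0 CPM against 153 and 240 CPM, and Ldb2, a LIM-domain binding factor, at 200 and 276 CPM against 716 and 939 CPM. Of the other members, Erbb4 was at 234 and 158 CPM in the Nrg1 nuclei and 148 and 126 CPM in those with 0, and Egfr was at 46.9 and 97.2 CPM against 34.6 and 45.7 CPM; the Nrg1 nuclei were also deeper, with median UMIs of 3971.5 and 4030 against 3080 and 2935.

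Nrg2 was highest in macrophages, at 225 CPM (202 to 251) in the Female and 244 CPM (224 to 265) in the Male library. Fibroblasts followed at 54.4 and 63.2 CPM and fat at 37.0 and 22.8 CPM, and muscle and endothelium lay between 6.90 and 10.1 CPM. Macrophages, fibroblasts and fat were separate from each other in both libraries, and muscle and endothelium overlapped. A UMI of Nrg2 was found in 29.9% and 35.2% of macrophage nuclei (15.3% and 21.1% after thinning, which left out 42 and 74 nuclei), against 1.305% and 1.398% of the deeper muscle nuclei. Fibroblast nuclei with 0 macrophage marker UMIs had Nrg2 at 55.7 CPM (50.9 to 60.9) and 64.0 CPM (59.0 to 69.3). Those with at least 1 had 8.23 CPM (0.996 to 29.7) on 2 UMIs and 47.7 CPM (29.9 to 72.2) on 22 UMIs. The second were lower in the Female library and overlapped in the Male. These counts are too few to settle whether the 2 rise together.

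The Nrg2 of fibroblast nuclei lay mostly in nuclei that also held mesothelial markers. Msln, Upk3b and Wt1 mark the mesothelium, the lining layer of body cavities. In fibroblast nuclei with 0 UMIs of these genes (2079 Female and 2247 Male) Nrg2 was at 20.002 and 20.638 CPM. In the 102 and 230 nuclei with at least 1, it was at 568 and 367 CPM, and these nuclei held 65.6% and 71.4% of the Nrg2 UMIs of the class. Without them, fibroblasts lay below fat in the Female library, at 20.002 against 37.0 CPM. In the Male library the intervals overlapped (17.7 to 23.9 CPM against 19.9 to 26.0 CPM in fat). The order of fibroblasts above fat was thus not kept without these nuclei. Nuclei of no class that were called mesothelium-like by these 3 genes (191 and 288) had Nrg2 at 817 and 662 CPM, above the macrophage level in both libraries, and 69.6% and 56.6% of them had a UMI (49.4% and 37.2% after thinning).

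Smaller differences of Nrg2 between subgroups recurred in both libraries. In muscle it was at 46.9 and 43.1 CPM in the subgroup set by Lrrtm3, Lrrc7 and Adamtsl1, and at 5.10 CPM or less in the Pdzrn4 and Ptprz1 subgroups. In fat it was at 50.3 and 38.4 CPM in the subgroup set by Ucp1, Cidea and Ppara, genes of brown fat, and at 11.5 and 5.74 CPM in that set by Cyp2e1, Retn and Cfd, genes of white fat.

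Nrg4 was found at 1786 CPM (1761 to 1811) in Female and 1633 CPM (1607 to 1658) in Male fat nuclei, and 97.7% and 95.6% of them had a UMI. After thinning, which left out 11 and 15 nuclei, the shares were 75.3% and 71.0%. Its median was 11 and 9 UMIs per fat nucleus. In the other classes Nrg4 lay between 22.9 and 57.5 CPM, with a UMI in 2.49% to 4.02% of nuclei. Those low values moved with the fat markers in the same nuclei: endothelial nuclei with 0 UMIs of Adipoq, Plin1 and Plin4 had Nrg4 at 9.58 and 7.86 CPM and those with at least 1 had 222 and 181 CPM, and in muscle nuclei the values were 5.05 and 6.81 CPM against 67.3 and 58.1 CPM. The Ucp1 and Cyp2e1 subgroups of fat differed little, at 1863 and 1693 CPM against 1644 and 1568 CPM.

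Hbegf was highest in muscle, at 23.6 CPM (22.1 to 25.2) and 32.5 CPM (30.4 to 34.7), followed by endothelium at 15.5 and 13.1 CPM. In fibroblasts, fat and macrophages it was at 5.38 CPM or less. It was a sparse transcript, with a UMI in 7.20% and 8.07% of muscle nuclei (1.91% and 2.92% after thinning, with 328 and 779 nuclei left out). Endothelial nuclei with 0 muscle marker UMIs had Hbegf at 15.6 and 12.2 CPM, close to the class as a whole.

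Egfr, the receptor of EGF, TGF-alpha and HB-EGF, was highest in fibroblasts, at 590 CPM (574 to 607) and 803 CPM (785 to 821), with a UMI in 64.6% and 71.7% of nuclei (36.6% and 44.9% after thinning, 35 and 59 nuclei left out). Macrophages followed at 347 and 560 CPM and muscle at 151 and 126 CPM, and endothelium (37.3 and 54.9 CPM) and fat (20.5 and 63.4 CPM) were lowest. Fibroblasts stood above macrophages in both libraries and their values did not overlap, although the counting intervals of Male macrophages and Female fibroblasts did, while the values of endothelium and fat interleaved. Macrophage nuclei with 0 fibroblast marker UMIs had Egfr at 364 and 556 CPM, and such muscle nuclei had it at 139 and 106 CPM, against 204 and 196 CPM in muscle nuclei with at least 1 such UMI. Per fibroblast marker UMI, the Egfr of endothelium was 1.08 and 0.988 times that of fibroblasts, whereas that of muscle was 9.72 and 4.68 times and that of macrophages 17.4 and 41.2 times.

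Within fibroblasts Egfr was at 740 and 1012 CPM in the subgroup set by Pex5l, Adamtsl2 and Lsamp, 623 and 881 CPM in that set by C7 and Plcxd3, and 526 and 703 CPM in that set by Pi16 and Dact2, in the same order in both libraries. Among muscle subgroups the Lrrtm3 nuclei were highest, at 186 and 252 CPM, against 112 to 150 CPM in the Pdzrn4 and Ptprz1 nuclei. In fat the Ucp1 nuclei were at 6.46 and 37.8 CPM and the Cyp2e1 nuclei at 48.0 and 89.8 CPM. Outside the 5 classes, 190 Female and 159 Male nuclei set by Kcnj8, Abcc9 and Rgs5, of which Abcc9 was the main gene found, had Egfr at 541 and 504 CPM.

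Erbb4, the kinase-active receptor of the neuregulins, was higher in fat and in muscle than in the other classes. In fat it was at 1179 CPM (1159 to 1199) in the Female and 766 CPM (748 to 783) in the Male library, and in muscle at 893 CPM (883 to 903) and 840 CPM (829 to 850). Fat was above muscle in the Female library and below it in the Male library, so the order of these classes was not set. Endothelium followed at 160 and 135 CPM, separate from macrophages at 41.0 and 57.1 CPM and fibroblasts at 35.2 and 26.6 CPM, and the last 2 overlapped. A UMI of Erbb4 was found in 89.6% and 76.4% of fat and 65.3% and 58.9% of muscle nuclei, against 4.95% and 5.45% of fibroblast nuclei; after thinning, the fat shares were 58.7% and 43.3%, the muscle shares 43.4% and 42.0%, and the fibroblast shares 2.38% and 2.19%.

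Fat nuclei with 0 UMIs of Myh11, Acta2 and Lmod1 had Erbb4 at 1089 and 772 CPM and those with at least 1 at 1216 and 763 CPM, higher in the second in the Female library and overlapping in the Male. Endothelial nuclei with 0 muscle marker UMIs had Erbb4 at 161 and 103 CPM and those with at least 1 at 159 and 156 CPM. Per muscle marker UMI, Erbb4 in endothelium was 3.86 and 3.71 times that in muscle, while in fibroblasts it was 1.22 and 1.04 times and in macrophages 0.813 and 1.19 times. Endothelial Erbb4 was uneven among nuclei, since 84.9% and 86.5% had 0 UMIs and single nuclei reached 99 and 73.

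The muscle subgroups differed in Erbb4. It was at 1003 and 1008 CPM in the subgroup set by Pdzrn4, Sphkap and Unc5c, 782 and 772 CPM in that set by Ptprz1 and Actn2, and 225 and 207 CPM in that set by Lrrtm3, Lrrc7 and Adamtsl1. The 3 values kept this order in both libraries, and the libraries differed by less than any step between subgroups. The Lrrtm3 nuclei therefore combined the lowest Erbb4 of the 3 with the highest Egfr and Nrg2. In fat, Ucp1 nuclei had Erbb4 at 1345 and 886 CPM and Cyp2e1 nuclei at 866 and 637 CPM, higher in the Ucp1 nuclei of each library.

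**Figure D2:**
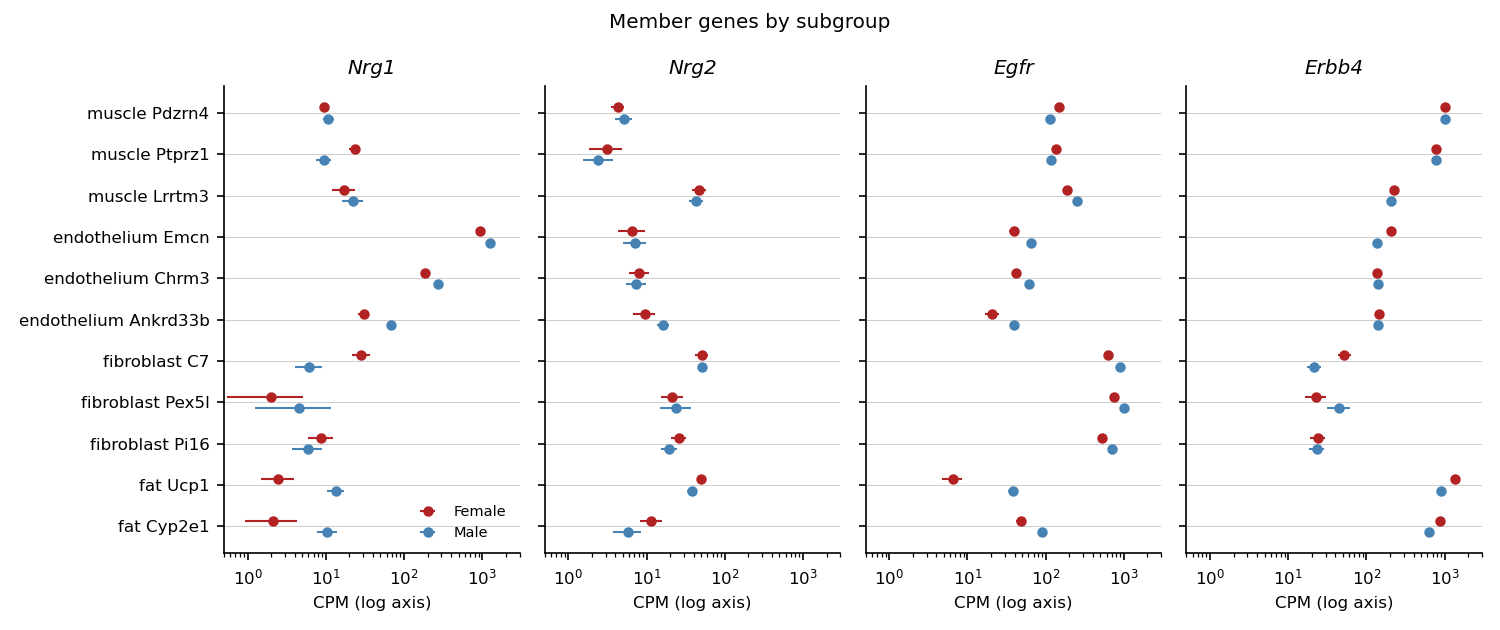
Nrg1, Nrg2, Egfr and Erbb4 in 11 subgroups of nuclei, in CPM on a log axis, 1 point per library (Female red, Male blue) with the exact 95% Poisson interval. Nrg1 peaks at 939 and 1272 CPM in the Emcn endothelium, and Erbb4 falls from 1003 and 1008 CPM in the Pdzrn4 muscle to 225 and 207 CPM in the Lrrtm3 muscle.

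Erbb2, the partner receptor, was measured at 15.02 and 16.49 CPM in endothelium, 12.0 and 16.7 CPM in fibroblasts, 10.05 and 9.62 CPM in muscle, and 2.20 CPM or less in fat and macrophages. Fibroblasts overlapped with endothelium and with muscle, whereas endothelium lay above muscle in both libraries, and muscle was separate from macrophages and fat. In fat it rested on 6 and 9 UMIs in all and in macrophages on 2 and 5. At such counts a difference between fat and macrophages was not detectable. Fat nuclei had Erbb4 at the levels above, Erbb2 at 0.541 and 0.932 CPM and Erbb3 at 3.07 and 2.17 CPM. These genes differ in length, so their levels are not compared with each other.

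Erbb3 lay between 0.747 and 8.74 CPM in the 5 classes, and all neighbours in its order overlapped. Of its 175 Female and 199 Male UMIs, 20% and 19.1% lay in nuclei of no class. A UMI of Erbb3 was found in 0.271% and 0.379% of muscle nuclei and in 1.15% and 1.74% of fibroblast nuclei.

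Members were also counted together in the same nucleus. Nrg4 and Erbb4 were both found in 88.3% and 74.7% of fat nuclei. After thinning to 1000 UMIs the joint shares were 46.0% and 31.5%, against 44.2% and 30.8% from the product of the single shares. Egfr and Erbb4 were both found in 21.9% and 14.9% of muscle nuclei (5.34% and 4.19% thinned, against products of 4.94% and 4.07%), and Nrg1 and Erbb4 in 2.46% and 2.70% of endothelial nuclei (0.821% and 0.850% thinned, against 0.833% and 0.910%). Nrg2 and Egfr were both found in 14.97% and 22.7% of macrophage nuclei (4.33% and 8.52% thinned, against 3.55% and 7.25%). After thinning, each joint share thus lay near the product of the single ones, and joint shares before thinning grow with depth.

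Genes with a like pattern were taken over 12 subgroups and classes in 2 libraries, 24 points that share libraries and depth, by Pearson's r of log2(CPM + 5), as a description. For Nrg1 they were Gimap8 (r 0.95), Emcn, Ugt8a, Thbs1 and Rps6ka2, of which Emcn and Thbs1 set a subgroup. For Nrg2 they were Retreg1 (0.92), Fgf9, Zfp710, Arhgap18 and Lpin2. For Nrg4 they were Ankef1 (0.99), Dgat2, the enzyme of the last step of triglyceride synthesis, Plin1, which is a marker of the class, Myl1 and Ces1d. Egfr was most like Glb1l (0.95), Gsdme, Fgfr1, Srsf6 and Lsp1. Erbb2 was most like Hdac7 (0.97), Mapk12, Col5a2, Mxra8 and P3h3, and Erbb4 most like Tnfrsf10b (0.94), Mpp7, Herc3, Larp1b and Cstf3. Hbegf was most like Tspan2 (0.97), Kalrn, Schip1, Myh9 and Lmcd1. Erbb3, with under 500 UMIs, was left out of this search.

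Other genes of the pathway were counted by list at 20 CPM or more in both libraries, where 6746 to 7143 of all 54754 features reached that level depending on the class. Of 7 other EGF family ligands, 0 or 1 did in a class: Tgfa in endothelium (78.36 and 75.02 CPM) and fibroblasts, and Egf in fat (30.9 and 32.6 CPM). Genes below were picked by level among genes of differing length, so their order within a list has no meaning here. Of 7 proteases that release ligands, 4 (fat) to 7 (muscle) did. Named were Adam19 (macrophages, 315 and 352 CPM), Adam10 (endothelium, 317 and 307 CPM) and Adam17 (macrophages, 99.5 and 107 CPM). Nrd1 was at 146 and 144 CPM in fibroblasts and at 141 and 143 CPM in muscle, so these classes were close. Of 11 receptor adaptors and effectors, 10 or 11 did in every class. Pik3r1, the regulatory subunit of PI3 kinase, was at 1717 and 1932 CPM in fat. Grb2 was at 341 and 347 CPM in macrophages, and Gab1 at 315 and 249 CPM in endothelium. Stat5b was at 278 and 244 CPM in macrophages and at 248 and 238 CPM in muscle, so these classes were close. Of 11 receptor inhibitors and turnover factors, 7 (macrophages) to 10 (endothelium) did. The ubiquitin ligase Cbl was at 417 and 360 CPM and the phosphatase Ptpn12 at 319 and 269 CPM in macrophages, and the EGFR inhibitor Errfi1 (252 and 440 CPM) was highest in fibroblasts. Cblb was at 303 and 413 CPM in fibroblasts and at 307 and 379 CPM in fat, so fat was above in the Female and fibroblasts in the Male library.

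The libraries were then compared with each other. With 1 library per sex there is no test, sex cannot be told apart from the library, and differences are given by size: genes at least 2-fold apart on log2(CPM + 5), among those that reached 50 UMIs in all and 20 CPM in at least 1 of the libraries. In muscle 0 of the 4 members measured at that level were 2-fold apart, with a background of 0.375% of all genes. In endothelium it was 0 of 4 (0.412%) and in fibroblasts 0 of 4 (0.905%). In fat it was 1 of 4 (2.02%), and in macrophages 2 of 5 (1.94%).

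The member 2-fold apart in fat was Egfr, at 20.5 CPM in the Female and 63.4 CPM in the Male library, on 227 and 612 UMIs, a Female to Male ratio of 0.323 (0.276 to 0.377). Its log2 ratio was -1.42, and -1.28 with doublets left out, -1.31 without nuclei that held a second class's markers and -1.39 after thinning. Both subgroups of fat were lower in the Female library, with ratios of 0.171 in Ucp1 and 0.534 in Cyp2e1 nuclei. Fat nuclei with 0 fibroblast marker UMIs gave 17.3 and 51.2 CPM, while 153 of the Female and 238 of the Male fat nuclei held at least 1 such UMI.

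In macrophages, Nrg1 (13 and 75 UMIs, ratio 0.265) and Nrg4 (34 and 131 UMIs, ratio 0.398) were lower in the Female library. Each became smaller when some nuclei were left out: the log2 ratio of Nrg1 was -1.46 and became -0.31 without doublets, and that of Nrg4 was -1.17, stayed at -1.14 without doublets and became -0.37 without nuclei that held a second class's markers. Both genes have their highest level in another class, endothelium and fat, and the part of that in these ratios was not tested.

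Smaller differences had intervals away from 1 that cover counting error only. Erbb4 in fat had a Female to Male ratio of 1.539 (1.496 to 1.584), also above 1 in both fat subgroups (1.52 in Ucp1 and 1.36 in Cyp2e1 nuclei), while in muscle the ratio was 1.06 (1.05 to 1.08). Nrg2 in fat had a ratio of 1.62 (1.37 to 1.92). Nrg1 in endothelium had a ratio of 0.740 (0.716 to 0.764), and Egfr one of 0.735 (0.710 to 0.761) in fibroblasts and 0.619 (0.558 to 0.687) in macrophages. Nrg4 in fat had a ratio of 1.09 (1.07 to 1.12). Of the pathway lists, Tgfa in macrophages was the 1 gene 2-fold apart, at 26.2 and 7.46 CPM on 39 and 17 UMIs.

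**Figure D3:**
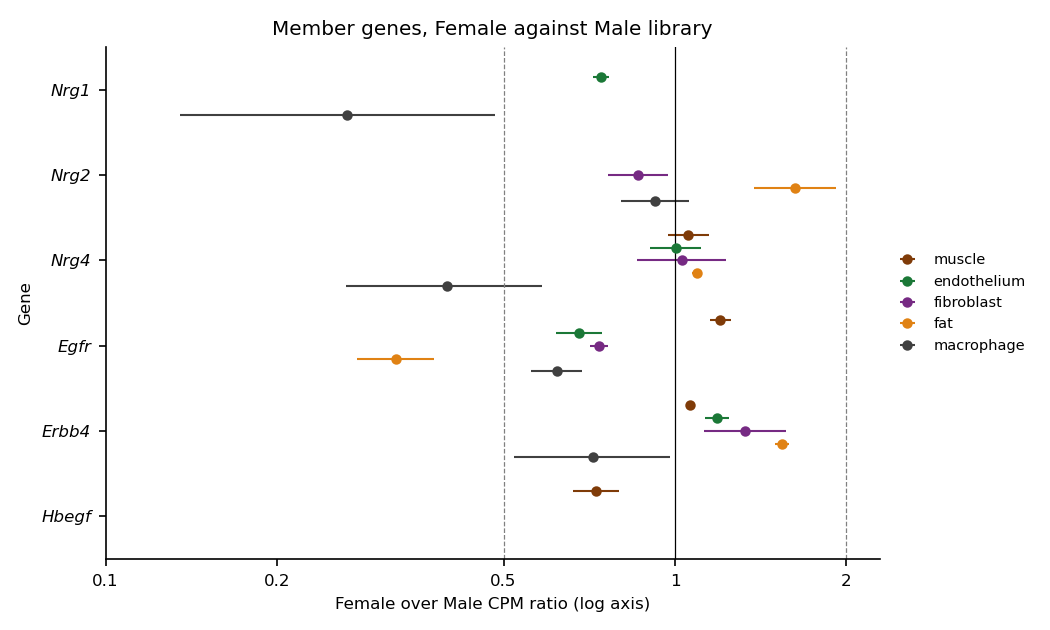
Female to Male ratio of CPM on a log axis for the members measured at 20 CPM or more in a class, with 1 coloured point per class and the exact 95% interval, and dashed lines at 2-fold. Egfr in fat (0.323), Nrg1 in macrophages (0.265) and Nrg4 in macrophages (0.398) lie beyond the line.

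The reporter gave the comparison that can be tested, because both reporter states occur in each library. GFP-only nuclei, with at least 1 GFP UMI and no tdTomato UMI, were compared with tdTomato-only nuclei, the reverse. GFP is the mark of Wnt1-Cre descent, but a reporter state can rest on 1 UMI. Reporter RNA from outside the nucleus, or a reporter transcript that was missed, can put a nucleus in the wrong state. How often this occurred was not tested, so the descent of a single nucleus is not settled by its state. UMIs were summed per library and reporter state, and the 4 sums were tested with edgeR's quasi-likelihood test with library as a block and Benjamini-Hochberg adjustment over all genes tested. Since nothing shows that the 2 libraries stand for more than 1 pool each, p-values measure only the spread between these sums. With 4 sums and a block, edgeR takes most of that spread from all genes and little from the gene itself. A very small p-value here does not stand for many replicates. GFP made up 54.9% and 54.0% of reporter UMIs in muscle, 60.5% and 59.2% in fibroblasts and 52.3% and 39.5% in fat, and also 17.0% and 17.4% in endothelium and 25.1% and 22.8% in macrophages. Of the muscle nuclei, 3434 and 3462 had no UMI of either reporter and 541 and 568 had both, and these were left out.

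In muscle, 2420 and 2196 nuclei were GFP-only and 1729 and 1430 tdTomato-only. Of the 7 members tested, 2 were called (Erbb4 and Nrg1), with a background of 2.16% of all genes called. Erbb4 was at 750 CPM in GFP-only and 1099 CPM in tdTomato-only nuclei of the Female library, and at 739 and 1035 CPM in the Male library. Both GFP-only values lie below both tdTomato-only values, and nuclei with no reporter UMI lay between them, at 856 and 792 CPM. The log2 difference of GFP-only over tdTomato-only was -0.52 (SE 0.035, edgeR adjusted p = 0.000244), and, on log2(CPM + 5), -0.55 and -0.48 within the Female and the Male library.

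The lower Erbb4 of GFP-only muscle nuclei was also seen in the share of nuclei. A UMI was found in 62.8% of GFP-only and 77.0% of tdTomato-only Female nuclei and in 58.5% and 70.3% of Male nuclei. After thinning, which left out 22 to 132 nuclei a group, the shares were 39.4% and 52.3%, and 40.4% and 48.1%. Muscle marker levels were close in the Female library (8402 and 8343 CPM) and in the Male library (9465 and 9201 CPM). The subgroups were not equally spread. Pdzrn4 nuclei, with the highest Erbb4, were 1519 of 2420 GFP-only and 1263 of 1729 tdTomato-only nuclei in the Female library. In the Male library they were 958 of 2196 and 708 of 1430. Reporter states were not compared within Lrrtm3 nuclei. The same direction was called within subgroups, with 3.06% of genes called in Pdzrn4 and 1.12% in Ptprz1 nuclei. In Pdzrn4 nuclei Erbb4 was at 858 against 1164 CPM and at 855 against 1216 CPM (log2 -0.48, edgeR adjusted p = 6.95e-28), and in Ptprz1 nuclei at 672 against 964 CPM and 725 against 846 CPM (log2 -0.37, edgeR adjusted p = 0.0149). Without the library block the difference in all muscle nuclei was the same size but was not called (edgeR adjusted p = 0.29), and that fit called 0 of 14556 genes, with 638 at an unadjusted p under 0.05, while DESeq2 called 93.

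Nrg1 in muscle was called too, at 5.61 against 14.9 CPM and 7.65 against 12.8 CPM (log2 -1.09, edgeR adjusted p = 0.0382), on 63, 130, 67 and 80 UMIs. Single nuclei held up to 17, 27, 13 and 17 of these UMIs, in the same order. The direction was the opposite without doublets (log2 0.63) and without nuclei holding a second class's markers (log2 1.27), and DESeq2 gave an adjusted p of 0.627. Endothelial markers were also lower in GFP-only nuclei, at 356 CPM in GFP-only and 424 CPM in tdTomato-only Female nuclei and 561 and 621 CPM in the Male library. The part of that in the Nrg1 difference was not tested. The other members tested in muscle were not called: Egfr had a log2 difference of -0.03 (SE 0.060), Hbegf -0.05, Erbb2 -0.10, Nrg4 0.20 and Nrg2 -0.35. Erbb3 did not reach 50 UMIs.

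**Figure D4:**
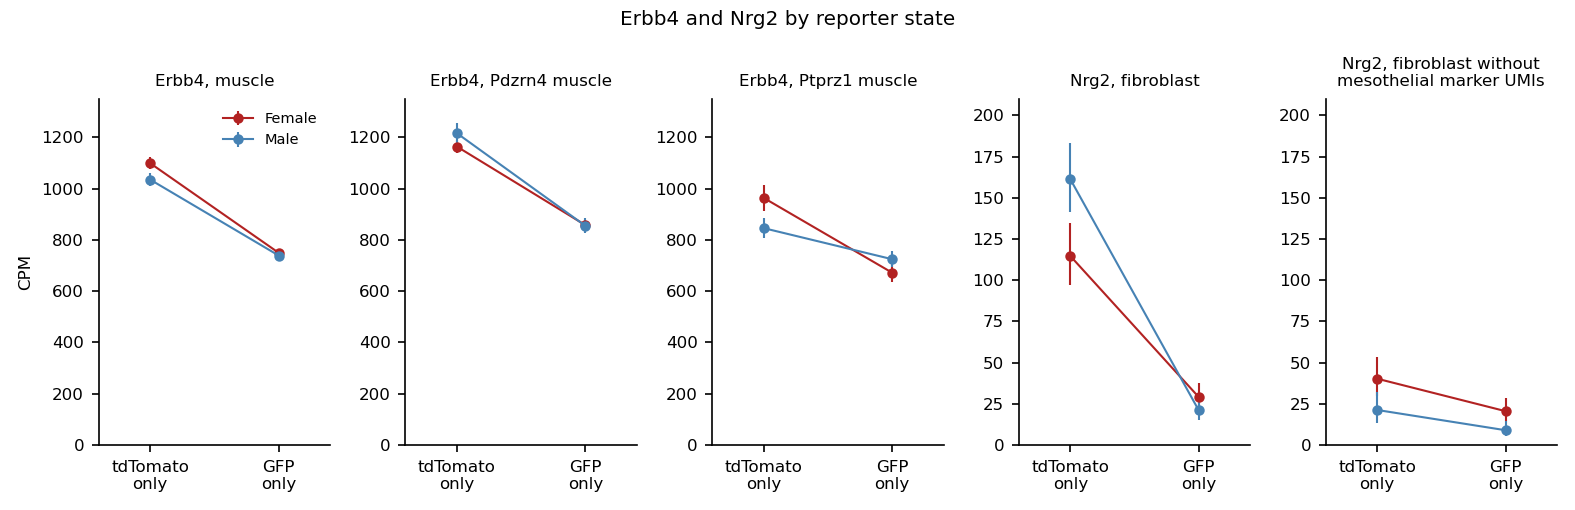
Erbb4 in muscle nuclei and in 2 muscle subgroups, and Nrg2 in fibroblast nuclei with and without those holding mesothelial marker UMIs, in CPM from 0, for tdTomato-only and GFP-only nuclei, with lines joining the sums of 1 library (Female red, Male blue) and bars for the exact 95% Poisson interval. Erbb4 goes from 1099 and 1035 CPM to 750 and 739 CPM, and Nrg2 from 115 and 161 CPM to 29.0 and 20.9 CPM.

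In fibroblasts, 415 and 450 nuclei were GFP-only and 285 and 321 tdTomato-only, and 2 of the 6 members tested were called (Nrg2 and Nrg1), with a background of 4.31% of genes. Nrg2 was at 29.0 CPM in GFP-only and 115 CPM in tdTomato-only Female nuclei, and at 20.9 and 161 CPM in Male nuclei. The reporter states did not overlap, and the log2 difference was -2.44 (SE 0.21, edgeR adjusted p = 9.53e-08). Nuclei with mesothelial marker UMIs were spread unequally: they made up 1.93% of GFP-only and 8.42% of tdTomato-only Female nuclei and 4.22% and 23.1% of Male nuclei. With them left out, Nrg2 was at 20.5 against 40.3 CPM and 8.97 against 21.3 CPM, a log2 difference of -1.06 that was not called (edgeR adjusted p = 0.052, with 2.7% of genes called).

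Most UMIs behind the Nrg1 call in fibroblasts came from 1 nucleus, and the call was not tested without it. The UMIs were 5 against 57 in the Female and 7 against 11 in the Male library, and 49 of the 57 came from a single nucleus; the log2 difference was -2.82 (edgeR adjusted p = 0.00147), and DESeq2 gave an adjusted p of 0.17. Within the libraries it was -2.70 in the Female and -0.54 in the Male on log2(CPM + 5), a scale that shrinks differences at such levels and is not that of the edgeR value. Egfr, the receptor gene with its highest level in fibroblasts, was not called, with a log2 difference of 0.11 (SE 0.14, edgeR adjusted p = 0.868). Nrg4 (0.75), Erbb4 (-0.54) and Erbb2 (-0.09) were not called either, and Hbegf and Erbb3 did not reach 50 UMIs. With the nuclei holding mesothelial marker UMIs left out, Nrg4 was called, at 47.2 against 11.4 CPM and 31.66 against 24.97 CPM (log2 1.13, edgeR adjusted p = 0.0114). These rest on 85 against 13 and 60 against 27 UMIs. The Male intervals overlapped (24.2 to 40.8 against 16.5 to 36.3 CPM), so the reporter states were apart in the Female library only. Single fibroblast nuclei of any reporter state held up to 35 Female and 28 Male Nrg4 UMIs. Fat markers were higher in GFP-only nuclei of the Female library (77.7 against 49.0 CPM) and not of the Male (89.7 against 93.4 CPM). The part of that in the Nrg4 difference was not tested.

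In endothelium, 271 and 406 nuclei were GFP-only and 2206 and 2799 tdTomato-only, and 3 of the 7 members tested were called (Nrg4, Egfr and Erbb4), with a background of 4.11% of genes. Nrg4 was at 69.1 against 24.5 CPM and 80.3 against 23.0 CPM (log2 1.63, edgeR adjusted p = 1.79e-15), Egfr at 67.0 against 32.4 CPM and 89.3 against 48.3 CPM (log2 0.92, edgeR adjusted p = 1.12e-06), and Erbb4 at 240 against 138 CPM and 183 against 112 CPM (log2 0.73, edgeR adjusted p = 2.6e-10). All 3 are genes with their highest level in another class. Markers of those classes were also higher in GFP-only nuclei, at 466 and 613 against 354 and 349 CPM for muscle, 73.3 and 120 against 40.9 and 48.6 CPM for fat, and 189 and 283 against 175 and 212 CPM for fibroblasts. The part of that in the differences of the 3 members was not tested. Without nuclei holding a second class's markers, none of the 3 was called, and the share of all genes called fell from 4.11% to 0.328%. That setting left 211 and 302 GFP-only nuclei. In it Nrg4 had a log2 difference of -1.33, Egfr 0.69 (edgeR adjusted p = 0.662) and Erbb4 0.29 (edgeR adjusted p = 0.793).

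Endothelial Nrg1, the ligand with its highest level in this class, was at 258 against 332 CPM and 424 against 423 CPM and was not called (log2 -0.18, SE 0.079, edgeR adjusted p = 0.261). In fat, compared after the other classes had been seen, 0 of the 5 members tested were called (0.344% of genes). Nrg4 had a log2 difference of 0.01 (SE 0.059), with a level of 1813 against 1866 CPM and 1661 against 1595 CPM. Erbb4 had one of 0.01 (SE 0.066), with 1162 against 1107 CPM and 720 against 742 CPM. The muscle difference of Erbb4 was thus seen beside values for fat in which the reporter states changed order between the libraries; the difference between the classes was not tested.

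Of the 36 other pathway genes, 0 were called in muscle (33 tested) and 0 in fibroblasts (30 tested); with nuclei holding mesothelial marker UMIs left out of the fibroblasts, 1 of 30 was called, the ligand gene Tgfa (log2 1.29, edgeR adjusted p = 0.00445), beside 2.7% of all genes. In endothelium 2 of 32 tested were called, both among the receptor inhibitors and higher in GFP-only nuclei: Errfi1 (log2 0.75, edgeR adjusted p = 0.0405) and Cblb (log2 0.59, edgeR adjusted p = 0.00269). The 2 of 32 stand beside 4.11% of all genes called in that class. Errfi1 had its highest level in fibroblasts and Cblb in fibroblasts or fat, markers of both classes were also higher in those nuclei, and the part of that in the result was not tested. The median log2 difference of the lists lay between -0.13 and 0.22 across these 3 classes, and that of all genes between -0.00075 and 0.0094.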

How the data were processed

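Single-nucleus RNA was measured in 1 Female and 1 Male library. The authors deposited unnormalized UMI counts for each gene in each barcode. Cell Ranger 7.0.0 wrote the matrices, per the file headers; the submitters' processing notes name the build GRCm38 and the tools STAR and Seurat 4.4.0. As to annotation version, strand and introns, settings were not given in the sources used here. Depth was 79294181 and 77989549 UMIs, and 18863 of 18872 and 20653 of 20659 barcodes with at least 300 genes were kept, ties between classes (80 and 86) staying in no class.

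UMIs were summed per class and library and scaled to CPM with exact Poisson intervals; shares of nuclei carry Clopper-Pearson intervals and ratios exact conditional ones, at 95%. Free RNA gives UMIs in nuclei that do not express a gene, so shares stand beside another class's share and were also taken after thinning each nucleus to 1000 UMIs. Subgroups needed 2 marker UMIs, and other cell types were called with 2 UMIs among nuclei of no class. Doublets were called by scrublet in scanpy 1.11.5 (expected rate 0.08) and left out only as an alternative. The reporter test used edgeR 4.0.16 (quasi-likelihood, TMM, genes with at least 50 UMIs, adjusted p of 0.05) in R 4.3.3, with DESeq2 1.42.0 as an alternative. The GFP-only and tdTomato-only sums of 1 library come from the same pool, which pairs them, so library is a block. On simulated data for the muscle comparison (14397 genes), 200 of 200 genes changed 2-fold were recovered with 13 false calls. The changed genes were drawn from those with many UMIs, under a fixed small dispersion and no difference between libraries. The recovery therefore does not cover smaller differences, sparser genes or the spread between real pools. Python 3.11.15, numpy 2.4.6, scipy 1.17.1 and pandas 2.3.3 were used.

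Named were all 8 members, up to 4 genes a pathway list by level and those called, 5 genes a member by likeness, and 8 genes each way for Nrg1, of which 1 is not reported here; of the groups of nuclei outside the classes, not all are described. The members, classes and lists were chosen with earlier results of these data known.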

Additional observations from a re-analysis of the deposited data

Results flagged for a closer look

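Several results differed in direction between classes, and none of these differences was tested. The log2 difference of Erbb4 between GFP-only and tdTomato-only nuclei was -0.52 in muscle and 0.73 in endothelium, where it was 0.21 without doublets. Between the libraries, the Female to Male ratio of CPM lay on opposite sides of 1 for Nrg2 (1.62 in fat, 0.861 in fibroblasts), Nrg4 (1.09 in fat, 0.398 in macrophages), Egfr (1.20 in muscle, 0.323 in fat) and Erbb4 (1.54 in fat, 0.719 in macrophages).

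Signals were also found in nuclei outside the 5 classes, which no comparison uses. A UMI of Nrg2 was found in 69.6% of Female and 56.6% of Male mesothelium-like nuclei, and one of Egfr in 48.4% and 42.8% of nuclei set by Kcnj8, Abcc9 and Rgs5. Erbb4 was at 1168 and 706 CPM, on 157 and 60 UMIs, in the 40 Female and 40 Male nuclei set mostly by Ryr2.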

How the results depend on the processing

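The class with the highest level was the same in both libraries for 5 members (Nrg1, Nrg2, Nrg4, Egfr and Hbegf), and was the same for those 5 with a class sum of 5, without nuclei holding a second class's markers, without doublets, without shared barcodes and after thinning. Of 50 member levels recomputed, 20 moved by more than their counting interval. The genes 2-fold apart between the libraries numbered 13, 12, 26, 59 and 64 in muscle, endothelium, fibroblasts, fat and macrophages with a pseudocount of 20 CPM, against 27, 31, 70, 153 and 151 with 5 CPM, and 62 in macrophages after thinning.

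The genes called by reporter state numbered 314 in muscle, 467 in fibroblasts and 561 in endothelium. DESeq2 called 93, 128 and 122, and without the replicate block, which the shared pool justifies, edgeR called 0, 38 and 83. In muscle there were 887 with no gene filter, 533 without doublets, 528 without nuclei holding a second class's markers and 121 in Ptprz1 nuclei alone. In fibroblasts there were 307 with 2 reporter UMIs and 279 without nuclei holding mesothelial marker UMIs, and in endothelium 137 without doublets, 41 without nuclei holding a second class's markers and 299 with 2 reporter UMIs. Of 66 recomputed member differences, 4 changed direction: Nrg1 in muscle (0.63 without doublets, 1.27 without nuclei holding a second class's markers) and Nrg4 in endothelium (-0.73 and -1.33). Another 13 lost their call, 5 of them without the replicate block and 3 by DESeq2; the cause was not tested. Left with 1 library, the differences on log2(CPM + 5), which are smaller at low levels than those of edgeR, ranged from -0.90 to -0.49 for Nrg1 and -0.55 to -0.48 for Erbb4 in muscle, -2.70 to -0.54 for Nrg1 and -2.68 to -1.82 for Nrg2 in fibroblasts, and 1.33 to 1.61 for Nrg4, 0.82 to 0.94 for Egfr and 0.69 to 0.77 for Erbb4 in endothelium, with no test. Comparisons within fat and within subgroups, and those without mesothelial marker nuclei or, between libraries, without nuclei holding a second class's markers, were chosen after seeing the data. Erbb2, Erbb3 and Hbegf have few UMIs, and differences in them may not be detectable at this depth.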
